A study of Mus musculus with 9 samples.

Results

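The kinases and scaffolds of the MAP kinase cascade were followed in RNA-seq data from mouse liver after an overdose of acetaminophen (APAP). Members were the protein-coding genes whose symbols name a MAP4K, MAP3K, MAP2K, MAPK, MAPK-activated protein kinase (Mapkapk) or JNK-interacting scaffold protein (Mapk8ip), which gave 49 of the 54532 genes in the table. They comprised 5 MAP4K, 18 MAP3K, 7 MAP2K, 13 MAPK, 3 MAPKAPK and 3 scaffold genes. The 9 libraries came from livers of male C57BL/6 mice aged 5 to 7 weeks, with 3 libraries in each of 3 groups. NC livers were labelled as control. APAP livers were taken 6 h after 500 mg/kg APAP, given intraperitoneally. The study's methods give an overnight fast for all animals and describe no injection of NC mice. AMSC livers were taken at the same time from mice that received 200000 adipose-derived mesenchymal stem cells (AMSCs) through the tail vein right after that dose. The AMSCs were grown from inguinal fat of C57BL/6 mice, so their transcripts carry the host's own sequence and cannot be told apart from it. Below, values of a group are listed in the order of the replicates 1, 2 and 3, or 2, 3 and 4 in the AMSC group.

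A MAP kinase cascade is a relay of phosphorylation in which a MAP4K or small GTPase switches on a MAP3K, the MAP3K a MAP2K, and the MAP2K a MAPK. The main branches end in ERK, which responds chiefly to growth factors, and in JNK and p38, which respond to stress and cytokines, and scaffold proteins hold the kinases of a branch together. In the APAP-injured liver, sustained phosphorylation of JNK is known to act on mitochondria and to worsen hepatocyte injury. The activity of these kinases is set by phosphorylation, so a transcript level says how much message was present and not how active a kinase was.

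The libraries held 13418921 to 16210930 reads on genes, and values are FPKM, fragments scaled to gene length and to a size factor for each library, which is not its total read count. Marker genes of hepatocytes were the most abundant of 7 marker lists in every group, with summed levels of 43369 to 46427 FPKM in NC, 59439 to 67573 in APAP and 56225 to 58154 in AMSC libraries. Of the 10 hepatocyte markers, 4 were higher and 1 was lower in APAP than in NC. Summed markers of erythroid cells were 135 to 254 FPKM in NC, 306 to 1406 in APAP and 183 to 312 in AMSC libraries, and 4 of the 5 tested were higher in APAP than in NC. Macrophage markers summed to 99.9 to 191 FPKM in NC, 149 to 376 in APAP and 89.7 to 148 in AMSC libraries, and 2 of 10 were higher in APAP than in NC. Neutrophil markers summed to 0.330 to 1.94 FPKM in NC, 7.69 to 35.3 in APAP and 4.65 to 6.19 in AMSC libraries, and all 3 that could be tested were higher than in NC in both groups. Sinusoidal endothelial markers summed to 28.7 to 64.9 FPKM in NC, 33.4 to 96.4 in APAP and 29.4 to 31.4 in AMSC libraries. Of these 10, 1 was higher in APAP than in NC. Stellate and other mesenchymal markers summed to 20.6 to 37.2 FPKM in NC, 26.6 to 59.8 in APAP and 26.5 to 44.4 in AMSC libraries. None of the 8 tested passed in APAP against NC. The 10 markers of T, B and NK cells summed to at most 3.29 FPKM and none could be tested. In bulk tissue, a smaller share of one cell type and less RNA per cell cannot be told apart. The part of these cell types in the differences below was not tested. The third NC library carries another date in its title than the other 8, so results against NC are also given without it.

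The transcripts compared here code for kinases that are told apart by a short motif in the activation loop, where a MAP2K phosphorylates a threonine and a tyrosine with 1 residue between them. The coding sequence around it is shown for the 2 JNK genes, the p38 gene and an ERK gene that were expressed in liver. Each stretch of 33 bases was read from the longest open reading frame of the gene's GENCODE vM21 transcripts (GRCm38), and the capitals mark the codons of the threonine, the middle residue and the tyrosine.
Mapk8: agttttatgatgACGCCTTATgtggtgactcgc
Mapk9: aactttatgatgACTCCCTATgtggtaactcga
Mapk14: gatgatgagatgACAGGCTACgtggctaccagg
Mapk3: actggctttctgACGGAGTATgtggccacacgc
The middle codon was CCT or CCC in the JNK genes, GGC in Mapk14 and GAG in Mapk3. The search for this motif also required a second threonine, 3 residues after the tyrosine. Of the 13 MAPK genes, 11 held this longer pattern once, and none was found in the atypical MAPKs Mapk4 and Mapk6. Mapk15, also listed below as atypical, held it. The first of the 3 codons was codon 183 in Mapk8 and Mapk9, codon 180 in Mapk14 and codon 203 in Mapk3.

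Transcripts of the cascade were unevenly spread over its tiers. All 7 MAP2K genes averaged 1 FPKM or more across all 9 libraries, which was required for testing, against 11 of 18 MAP3K, 4 of 5 MAP4K, 7 of 13 MAPK, 1 of 3 MAPKAPK and 1 of 3 scaffold genes. The 31 members that reached it had at least 11 reads in every library. The median level of a member was 10.3 FPKM among MAP2K genes, 2.09 among MAPK genes, 1.43 among MAP3K genes and 1.32 among MAP4K genes. The member with the highest mean was Mapkapk2, followed by Map2k2, Map2k3 and Mapk14. Summed over all 49 members, the level was 230.4 ± 5.14 FPKM (SD, n = 3) in NC, 304 ± 32.8 in APAP and 279.7 ± 17.5 in AMSC livers. The sum over MAPK genes was 67.2 ± 1.24, 65.7 ± 3.46 and 64.8 ± 2.20 FPKM, and that over MAPKAPK genes 22.2 ± 1.19, 68.8 ± 15.1 and 53.2 ± 8.45 FPKM. Mapkapk2 alone held 9.12 ± 0.651 percent of the summed level in NC, 21.9 ± 2.71 percent in APAP and 18.5 ± 2.07 percent in AMSC livers.

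**Figure D1:**
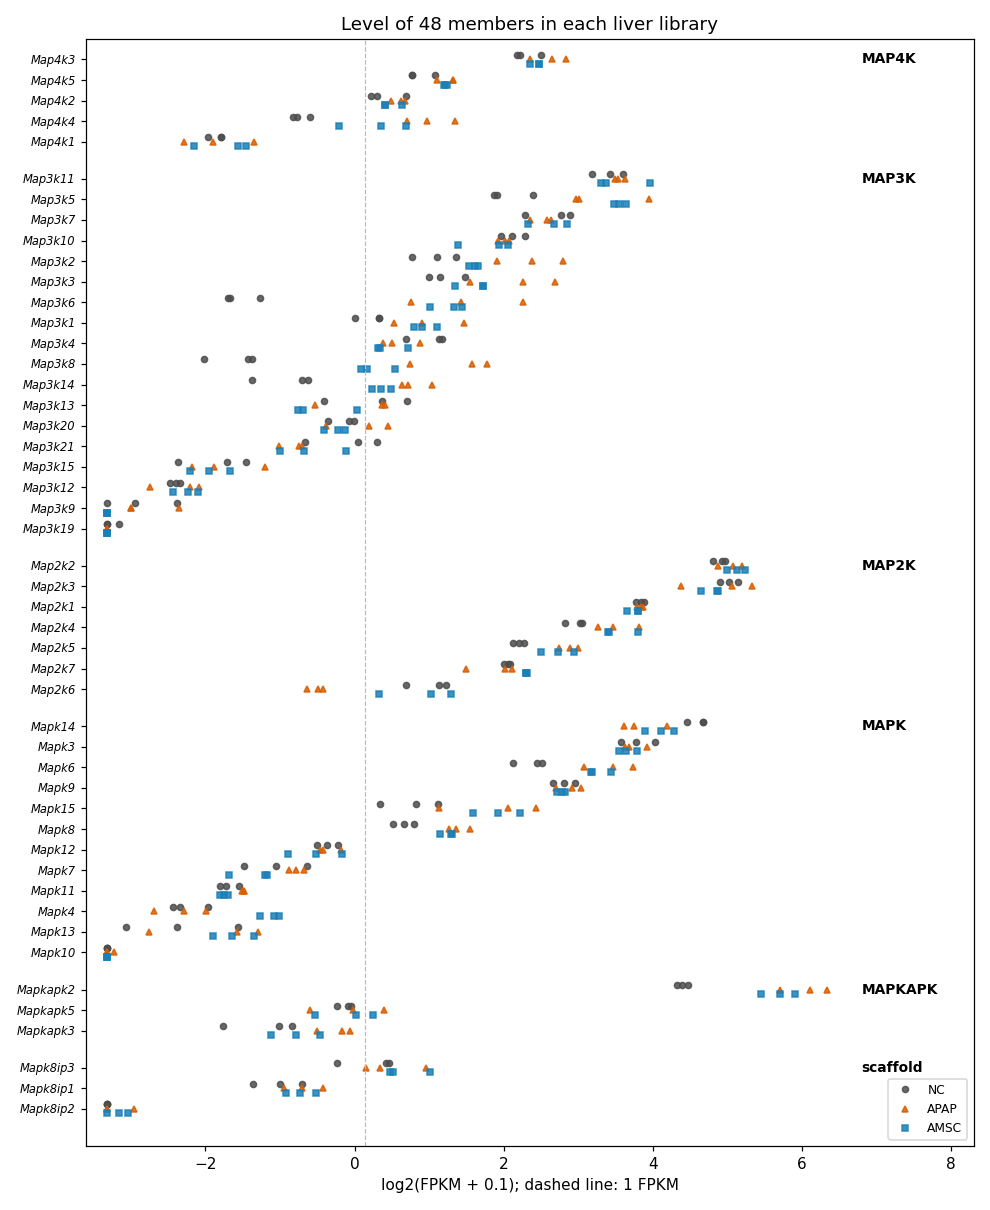
Level of 48 of the members in the 9 libraries on the log2(FPKM + 0.1) scale, grouped by tier and ordered by mean level, with NC as circles, APAP as triangles and AMSC as squares. The 7 MAP2K genes and Mapkapk2 lie at or to the right of the dashed line at 1 FPKM apart from Map2k6 in the APAP livers, while Mapk10, Map3k19 and Mapk8ip2 lie at the left edge.

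**Figure D2:**
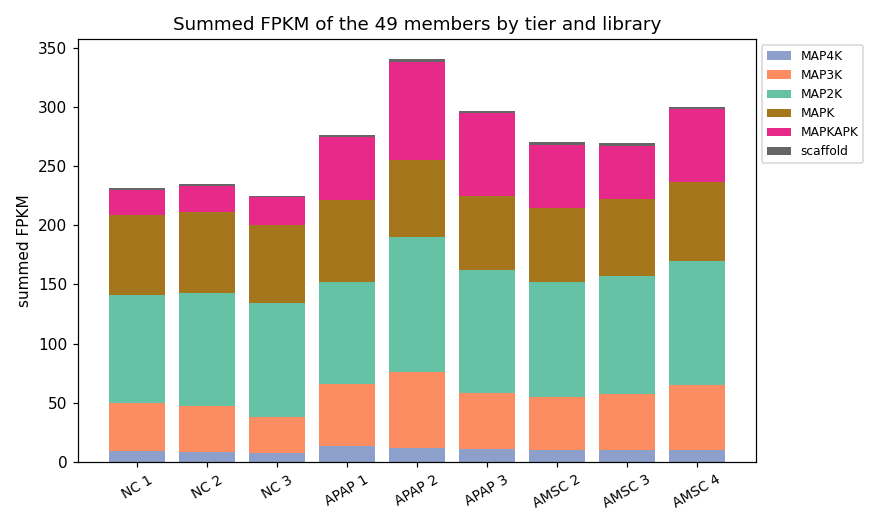
Summed FPKM of the members of each tier in each of the 9 libraries, as stacked bars. MAPK genes add 62.5 to 69.5 FPKM in every library, and the MAPKAPK part is 21 to 23.4 FPKM in NC, 53.0 to 83.1 FPKM in APAP and 44.7 to 61.6 FPKM in AMSC libraries.

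APAP against NC asks which of these transcripts differ in the injured liver, and the MAP3K tier and Mapkapk2 held most of the rises. Of the 31 members tested, 12 were higher (38.7%) and 2 were lower (6.45%) at an adjusted p of at most 0.05, where 12.8% of all 9699 genes tested were higher and 13.1% lower (25.9% in either direction). The p-values are from limma on log2(FPKM + 1), adjusted by Benjamini-Hochberg over all genes tested, and log2 fold changes on this scale understate the change of low genes. The rises comprised 6 of 11 MAP3K genes, 1 of 4 MAP4K, 2 of 7 MAP2K, 2 of 7 MAPK and the only MAPKAPK tested, and the falls were Map2k6 and Mapk14. The median log2 fold change was 0.76 over MAP3K genes, 0.26 over MAP4K, -0.00 over MAP2K and 0.07 over MAPK genes, against -0.00 over all genes. With a log2 fold change of at least 1 as a second condition, the threshold for a differentially expressed gene (DEG), 5 members were higher, where 5.09% of all genes were higher, and none was lower against 2.80% of all genes (7.90% in either direction). These 5 were Mapkapk2, Map3k6, Map3k8, Map3k5 and Map3k2. The libraries of both groups did not overlap for 15 members higher in APAP, where 20.9% of all genes were, and for 2 lower, where 22.3% were. Of the 31 members, 21 had a log2 fold change above 0, against 49.7% of all genes. Without the third NC library 8 members were higher, 2 were lower and 3 were DEGs, and without the second 8 were higher and 1 was lower. Calls over all 9699 genes dropped too, from 2514 in the main fit to 2152 without the third NC library and 1353 without the second. Without APAP replicates 1 and 3, whose erythroid sums were 1073 and 1406 FPKM, 11 were higher, 2 were lower and 7 were DEGs, but that fit holds a single APAP library, which is assumed to vary like the NC libraries. When values were scaled to total reads, the median of all genes moved to -0.22 and 9 members were higher and 2 lower. In that fit 3467 of all 9699 genes passed in either direction, a share close to that of the members in either direction. Shares of all genes by direction were not taken in that fit, so the 9 rises have none beside them.

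AMSC against NC asks the same of the treated livers. It uses the NC libraries a second time, so its values are set beside those above and not counted as further support. Of the 31 members, 12 were higher (38.7%) against 14.1% of all genes, and 1 was lower (3.23%) against 11.9% of all genes (26.0% in either direction). The rises comprised 5 MAP3K, 3 MAPK, 2 MAP2K and 1 MAP4K gene and Mapkapk2, and the fall was Mapk14. When values were scaled to total reads, the median of all genes moved to -0.14 and 7 members were higher and 4 lower. In that fit 3086 of all 9699 genes passed in either direction. Without the third NC library 7 were higher and 2 lower, without the second 7 were higher, and without the first or without AMSC replicate 2 there were 8 higher, with none lower in these fits. With the replicate number as a block 3 were higher and none was lower. Of all 9699 genes, 2521 passed in the main fit, 2356 without the third NC library, 1678 without the second and 1683 without the first. Without AMSC replicate 2 it was 1853, and with the block 846. DEGs were Map3k6, Map3k5 and Mapkapk2, all higher, so that 3 of 31 members (9.68%) were DEGs against 3.92% of all genes higher, 2.09% lower and 6.01% in either direction. The groups did not overlap for 17 members higher in AMSC, where 23.2% of all genes were, and for 2 lower, where 20.3% were. Of the 31 members, 21 had a log2 fold change above 0, against 51.7% of all genes.

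AMSC against APAP asks how injured livers with and without the cell injection differed, and it shares its APAP libraries with the first comparison. The study's captions call the APAP mice the vehicle group, but its methods describe no vehicle injection. The cells and their injection therefore cannot be told apart here. None of the 31 members passed in the main limma fit, where 3.78% of all genes passed, 1.64% higher and 2.14% lower. DEGs were 1.96% of all genes, 0.742% higher and 1.22% lower. Of the members, 9 of 31 had a log2 fold change above 0 against 52.0% of all genes. At an unadjusted p under 0.05 there were 4 members (12.9%) against 20.9% of all genes, namely Map2k6, Map3k8, Map3k2 and Map4k4. Voom on reads recovered from the FPKM values called 1 member, Map2k6, which also passed in several other limma settings given below. The libraries of the 2 groups did not overlap for 2 members higher in AMSC, where 14.6% of all genes were, and for 4 members lower in AMSC, where 12.4% were. The intervals of the differences were wide for some members, from -0.80 to 0.44 on the log2 scale for Map3k6 at 95% confidence, and narrower for others, from -0.33 to 0.19 for Map2k1. The plot of log2 fold changes shows the 3 comparisons side by side.

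**Figure D3:**
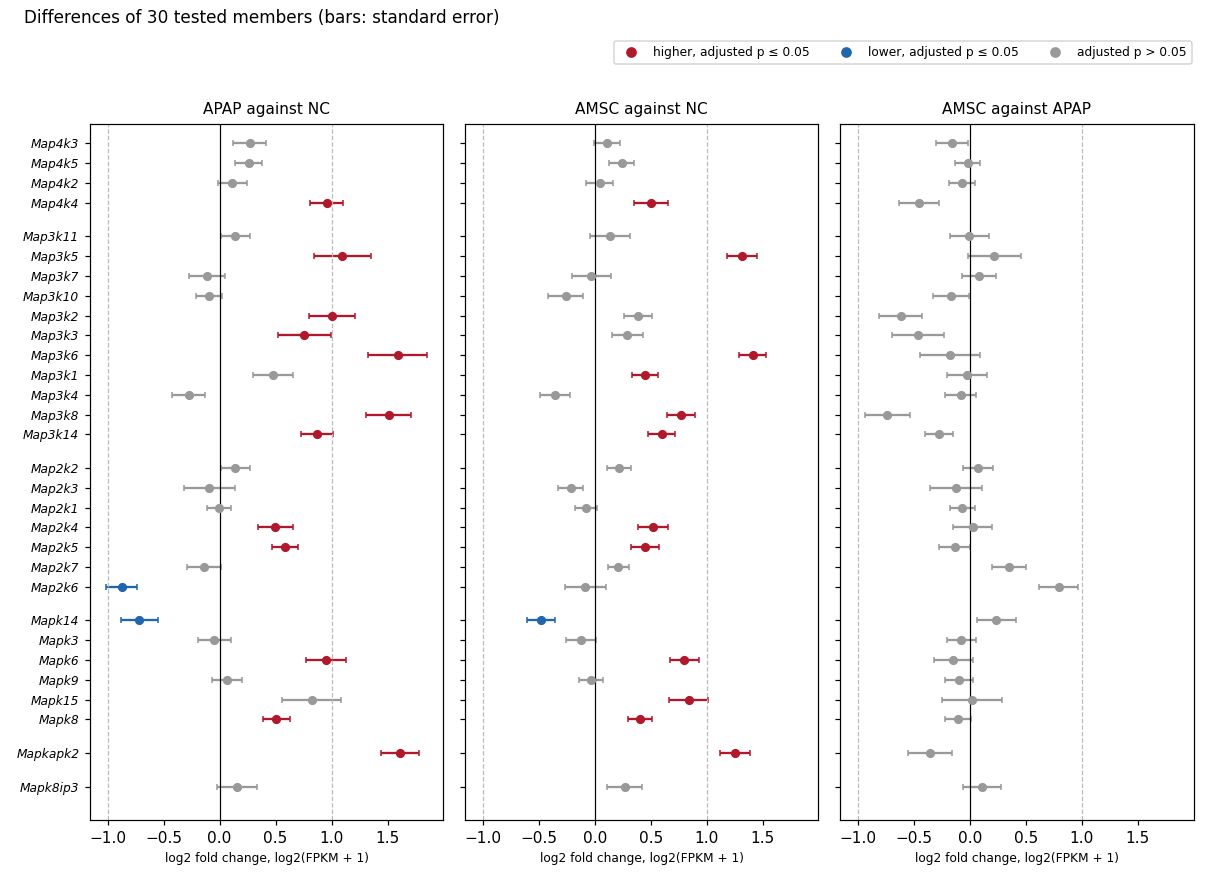
Log2 fold change on the log2(FPKM + 1) scale of 30 of the tested members in APAP against NC, AMSC against NC and AMSC against APAP, with bars for the standard error, red for higher and blue for lower at an adjusted p of at most 0.05, and dashed lines at a log2 fold change of 1 in either direction. The first and second panels hold 12 red points each, the blue points are Map2k6 and Mapk14 in the first and Mapk14 in the second, and the third panel has neither colour.

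At the top of the cascade, MAP4K genes code for kinases of the germinal center kinase group that act on MAP3Ks and feed the JNK branch. Map4k4, which links TNF signalling to JNK, stood at 0.488, 0.465 and 0.558 FPKM in the NC libraries, 2.45, 1.52 and 1.86 FPKM in the APAP libraries and 1.18, 0.763 and 1.51 FPKM in the AMSC libraries. Every APAP library lay above every AMSC library, and every AMSC library above every NC library. It rose by a log2 fold change of 0.96 ± 0.15, adjusted p = 0.00370 in APAP and 0.50 ± 0.15, adjusted p = 0.0391 in AMSC livers, both against NC. The second call was lost in 5 of 6 leave-one-out fits, those without any 1 NC library or without AMSC replicate 2 or 4 (adjusted p 0.0606 to 0.117). AMSC against APAP gave -0.46 ± 0.18, adjusted p = 0.202. Map4k2, Map4k3 and Map4k5 did not pass in any of the 3 comparisons, with absolute log2 fold changes of at most 0.27, and Map4k1, a kinase of blood cells, was at 0.105 to 0.291 FPKM and was not tested.

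Among MAP3Ks, the apoptosis signal-regulating kinases Map3k5 (ASK1) and Map3k6 (ASK2) sense oxidative stress and switch on JNK and p38, and ASK2 needs ASK1 for its stability. Map3k5 stood at 5.16, 3.67 and 3.55 FPKM in the NC libraries, 7.73, 15.4 and 7.95 FPKM in the APAP libraries and 11, 11.6 and 12.4 FPKM in the AMSC libraries. Every treated library lay above every NC library, and APAP replicate 2 was the highest of all while the other APAP libraries were below the AMSC libraries. It rose by 1.1 ± 0.26, adjusted p = 0.0184 in APAP and 1.32 ± 0.14, adjusted p = 4.78e-04 in AMSC livers, on the log2 scale against NC. The first call was lost without NC replicate 2 or 3 (adjusted p 0.0576 to 0.0685). Map3k6 stood at 0.208, 0.314 and 0.215 FPKM in the NC libraries, 1.59, 4.68 and 2.59 FPKM in the APAP libraries and 1.91, 2.62 and 2.43 FPKM in the AMSC libraries, with every treated library above every NC library. It rose by 1.59 ± 0.26, adjusted p = 0.00495 in APAP and 1.41 ± 0.12, adjusted p = 1.93e-04 in AMSC livers. The ratio of Map3k5 to Map3k6 was 17.7 ± 6.62 (SD, n = 3) in NC, 3.74 ± 0.983 in APAP and 5.08 ± 0.670 in AMSC livers, and the smallest p that an exact permutation test of 3 against 3 allows is 0.10. AMSC against APAP gave 0.22 ± 0.24, adjusted p = 0.672 for Map3k5 and -0.18 ± 0.27, adjusted p = 0.761 for Map3k6.

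Other MAP3Ks act downstream of cytokine and Toll-like receptors. Map3k8 (TPL2), which activates MEK in the ERK branch and is prominent in macrophages, stood at 0.146, 0.270 and 0.284 FPKM in the NC libraries, 1.57, 3.31 and 2.89 FPKM in the APAP libraries and 1.36, 0.957 and 1.02 FPKM in the AMSC libraries. The 3 groups did not overlap, with APAP highest and NC lowest, and the lowest library rested on 11 reads. It rose by 1.51 ± 0.20, adjusted p = 0.00219 in APAP and 0.77 ± 0.12, adjusted p = 0.00337 in AMSC livers. Between the treated groups the difference was -0.74 ± 0.20, adjusted p = 0.0976, and it passed in 3 of 16 alternatives, with adjusted p of 0.0185 without APAP replicate 1, 0.0396 with the replicate number as a block and 0.0452 with all 9 libraries in 1 fit. Map3k14 (NIK), the kinase of the noncanonical NF-kappaB pathway, stood at 0.549, 0.512 and 0.284 FPKM in the NC libraries, 1.46, 1.95 and 1.54 FPKM in the APAP libraries and 1.17, 1.08 and 1.30 FPKM in the AMSC libraries, again without overlap between any 2 groups. It rose by 0.87 ± 0.14, adjusted p = 0.00453 in APAP and 0.60 ± 0.12, adjusted p = 0.00958 in AMSC livers, while AMSC against APAP gave -0.28 ± 0.13, adjusted p = 0.262. The neutrophil marker sums given above were higher in every APAP library than in every other library. So were the macrophage sums apart from the third NC library, whose sum was 191 FPKM against 149 in the lowest APAP library. Within APAP, neutrophil sums were 35.3, 7.69 and 16.5 FPKM and macrophage sums 274, 149 and 376 FPKM. Both were lowest in APAP replicate 2, where Map3k8 and Map3k14 were highest. The part of these cells in the 2 transcripts was not tested.

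Map3k2 and Map3k3 (MEKK2 and MEKK3) activate MAP2Ks of the JNK and ERK5 branches. Map3k2 stood at 2.46, 2.05 and 1.60 FPKM in the NC libraries, 5.08, 6.85 and 3.66 FPKM in the APAP libraries and 2.81, 3.06 and 2.97 FPKM in the AMSC libraries. APAP libraries were all higher than AMSC libraries, and AMSC libraries all higher than NC libraries. It rose by 1.01 ± 0.21, adjusted p = 0.0109 in APAP livers, and the other comparisons gave 0.39 ± 0.13, adjusted p = 0.0603 for AMSC against NC and -0.62 ± 0.19, adjusted p = 0.121 for AMSC against APAP. Map3k3 stood at 2.70, 2.11 and 1.89 FPKM in the NC libraries, 6.36, 4.69 and 2.83 FPKM in the APAP libraries and 2.44, 3.19 and 3.21 FPKM in the AMSC libraries. Its APAP libraries were all above the NC libraries but reached into the AMSC range, and it rose by 0.76 ± 0.23, adjusted p = 0.0495 in APAP livers. That call was lost in 5 of 6 leave-one-out fits, those without any 1 NC library or without APAP replicate 1 or 2 (adjusted p 0.0775 to 0.138), and AMSC livers gave 0.29 ± 0.14, adjusted p = 0.165 against NC.

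Map3k1 (MEKK1), a JNK pathway kinase that also carries a ubiquitin ligase domain, stood at 1.15, 1.15 and 0.905 FPKM in the NC libraries, 2.66, 1.77 and 1.35 FPKM in the APAP libraries and 1.78, 2.06 and 1.64 FPKM in the AMSC libraries. It rose by 0.45 ± 0.12, adjusted p = 0.0242 in AMSC livers, where every library lay above every NC library, and that call was lost in 5 of 6 leave-one-out fits, all but the one without AMSC replicate 4 (adjusted p 0.0540 to 0.0633). APAP livers gave 0.48 ± 0.18, adjusted p = 0.0881 against NC. Map3k7 (TAK1), the kinase that receives signals from TNF, IL-1 and TGF-beta receptors, stood at 7.33, 6.72 and 4.79 FPKM in the NC libraries, 6.08, 5.89 and 5.03 FPKM in the APAP libraries and 4.92, 7.10 and 6.28 FPKM in the AMSC libraries. The 3 groups overlapped, and APAP against NC gave -0.11 ± 0.16, adjusted p = 0.642 with a 95% interval of -0.49 to 0.26. Map3k11 (MLK3), a mixed lineage kinase upstream of JNK, stood at 10.6, 12 and 8.96 FPKM in the NC libraries, 11.2, 11.5 and 12.2 FPKM in the APAP libraries and 10.3, 9.74 and 15.5 FPKM in the AMSC libraries. It was the most abundant MAP3K, its groups overlapped, and APAP against NC gave 0.14 ± 0.13, adjusted p = 0.470. Map3k4 and Map3k10 did not pass in any comparison, and the other 7 MAP3K genes had means under 1 FPKM and were not tested. Of these, Map3k12 and Map3k15 overlap abundant genes on the opposite strand, Pcbp2 and Pdha1, Map3k13 shares its strand with overlapping noncoding genes, and the strandedness of the libraries is not given in the sources used here.

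**Figure D4:**
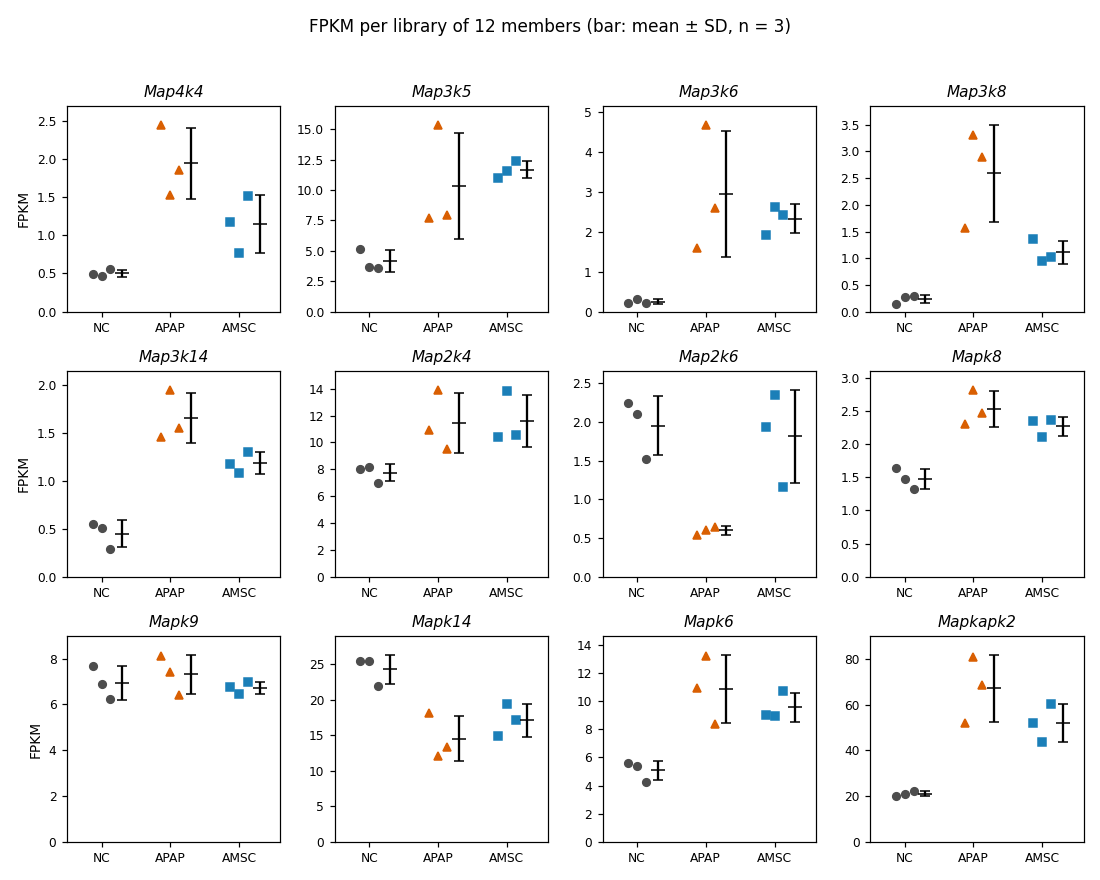
FPKM in each library of 12 members from the MAP4K tier to the MAPKAPKs, with NC as circles, APAP as triangles, AMSC as squares and the mean ± SD of 3 libraries beside them, each on its own axis from 0. Map4k4, Map3k8 and Map3k14 are highest in APAP and lowest in NC, Map2k6 is below 0.65 FPKM in APAP livers only, and Mapk9 overlaps between all groups.

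MAP2Ks phosphorylate the threonine and tyrosine codon products shown above. Map2k6 (MKK6), 1 of the 2 MAP2Ks dedicated to p38, stood at 2.24, 2.10 and 1.52 FPKM in the NC libraries, 0.541, 0.609 and 0.648 FPKM in the APAP libraries and 1.94, 2.35 and 1.16 FPKM in the AMSC libraries. All 3 APAP libraries lay below all other libraries, and NC and AMSC libraries overlapped. It fell by 0.88 on the log2 scale in APAP livers (-0.88 ± 0.14, adjusted p = 0.00418), and AMSC against NC gave -0.08 ± 0.18, adjusted p = 0.768 with a 95% interval of -0.50 to 0.33. AMSC against APAP gave 0.79 ± 0.17, adjusted p = 0.0505, just outside the threshold, and an adjusted p of 0.0244 to 0.243 over 16 alternatives, of which 9 passed. One of these 9 was a fit without 1 library, AMSC replicate 4 (adjusted p = 0.0410). Its partner Map2k3 (MKK3), at 20.6 to 40.2 FPKM, did not pass, and APAP against NC gave -0.09 ± 0.23, adjusted p = 0.799. Every AMSC library of Map2k3 lay below every NC library, and AMSC against NC gave -0.22 ± 0.11, adjusted p = 0.197. The ratio of Map2k3 to Map2k6 was 17.2 ± 5.17 (SD, n = 3) in NC, 51.8 ± 13.9 in APAP and 16.8 ± 7.11 in AMSC livers, with every APAP library above every other library. Together the 2 genes summed to 34.3 ± 2.27, 32.0 ± 9.95 and 29.6 ± 2.37 FPKM in NC, APAP and AMSC livers. The APAP libraries overlapped both other groups, and every AMSC library lay below every NC library.

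In the JNK branch, Map2k4 (MKK4) phosphorylates JNK and also p38, and Map2k7 (MKK7) phosphorylates JNK only. Map2k4 stood at 8.03, 8.17 and 7.0 FPKM in the NC libraries, 10.9, 13.9 and 9.52 FPKM in the APAP libraries and 10.4, 13.8 and 10.6 FPKM in the AMSC libraries, with treated libraries all above NC. It rose by 0.50 ± 0.15, adjusted p = 0.0482 in APAP and 0.52 ± 0.13, adjusted p = 0.0230 in AMSC livers. Both calls were lost without any 1 NC library, and the first also without APAP replicate 1 or 2, at adjusted p of 0.0624 to 0.128 in APAP and 0.0530 to 0.0583 in AMSC livers. Both were also lost when values were scaled to total reads or over all genes above 0. The call in APAP livers was lost with quantile normalization or no trend, and that in AMSC livers with the replicate number as a block. Map2k7 stood at 4.07, 3.93 and 4.14 FPKM in the NC libraries, 2.71, 4.24 and 3.96 FPKM in the APAP libraries and 4.8, 4.88 and 4.81 FPKM in the AMSC libraries. The AMSC libraries were above all others, yet no comparison passed in the main fit, with -0.14 ± 0.15, adjusted p = 0.539 in APAP against NC, 0.21 ± 0.09, adjusted p = 0.144 in AMSC against NC and 0.35 ± 0.15, adjusted p = 0.248 in AMSC against APAP. In a fit over all genes above 0, Map2k7 passed as higher in AMSC than in NC livers. Map2k5 (MEK5), the MAP2K of ERK5, stood at 4.27, 4.75 and 4.50 FPKM in the NC libraries, 7.87, 7.30 and 6.61 FPKM in the APAP libraries and 6.51, 5.53 and 7.58 FPKM in the AMSC libraries, with treated libraries all above NC. It rose by 0.58 ± 0.11, adjusted p = 0.00916 in APAP and 0.45 ± 0.12, adjusted p = 0.0330 in AMSC livers, and the second call was lost in 5 of 6 leave-one-out fits, all but the one without AMSC replicate 3 (adjusted p 0.0624 to 0.108). Map2k1 and Map2k2 (MEK1 and MEK2), the MAP2Ks of ERK, summed to 43.9 ± 1.25, 47.1 ± 3.41 and 48.1 ± 3.73 FPKM in NC, APAP and AMSC livers, and neither passed.

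At the level of the MAPKs, JNK is coded by Mapk8 (JNK1), Mapk9 (JNK2) and Mapk10 (JNK3, a gene of brain and heart). Mapk8 stood at 1.63, 1.48 and 1.33 FPKM in the NC libraries, 2.30, 2.82 and 2.46 FPKM in the APAP libraries and 2.34, 2.10 and 2.37 FPKM in the AMSC libraries. Treated libraries were all above NC libraries, and it rose by 0.51 ± 0.12, adjusted p = 0.0193 in APAP and 0.40 ± 0.11, adjusted p = 0.0282 in AMSC livers. These calls were lost without any 1 NC library, the first also without APAP replicate 2 and the second also without AMSC replicate 2 or 4, at adjusted p of 0.0512 to 0.0727 in APAP and 0.0544 to 0.0884 in AMSC livers. When values were scaled to total reads, both calls of Mapk8 were lost too. Mapk9 stood at 7.67, 6.90 and 6.22 FPKM in the NC libraries, 8.10, 7.42 and 6.41 FPKM in the APAP libraries and 6.77, 6.45 and 6.97 FPKM in the AMSC libraries. Its groups overlapped, and the differences were 0.07 ± 0.13, adjusted p = 0.741 in APAP against NC, -0.03 ± 0.11, adjusted p = 0.850 in AMSC against NC and -0.10 ± 0.12, adjusted p = 0.713 in AMSC against APAP. The ratio of Mapk9 to Mapk8 was 4.68 ± 0.00965 (SD, n = 3) in NC, 2.92 ± 0.524 in APAP and 2.97 ± 0.0898 in AMSC livers, with every treated library below every NC library. The summed JNK transcript level was 8.41 ± 0.878, 9.84 ± 0.843 and 9.01 ± 0.404 FPKM in NC, APAP and AMSC livers. Mapk10 had a single read, in APAP replicate 2, and none in the other 8 libraries. Between AMSC and APAP livers, Mapk8 differed by -0.11 ± 0.12, adjusted p = 0.674 with a 95% interval of -0.38 to 0.17.

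Mapk14 (p38 alpha) held most of the p38 transcript in liver and stood at 25.4, 25.5 and 21.9 FPKM in the NC libraries, 18.1, 12.1 and 13.3 FPKM in the APAP libraries and 14.8, 19.4 and 17.1 FPKM in the AMSC libraries. All treated libraries were below all NC libraries, and APAP and AMSC libraries overlapped. It fell by 0.72 on the log2 scale in APAP (-0.72 ± 0.16, adjusted p = 0.0168) and by 0.48 in AMSC livers (-0.48 ± 0.13, adjusted p = 0.0259), while AMSC against APAP gave 0.24 ± 0.18, adjusted p = 0.501. The first call was lost without NC replicate 1 or 2 or APAP replicate 2 (adjusted p 0.0578 to 0.0683), and the second without NC replicate 1 or 2 or AMSC replicate 2 or 4 (0.0727 to 0.0908). The summed level of the 4 p38 genes was 25.3 ± 2.10 FPKM in NC, 15.6 ± 2.99 in APAP and 18.2 ± 2.45 in AMSC livers (SD, n = 3). Mapk11, Mapk12 and Mapk13 were under 1 FPKM in every library.

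Below p38, Mapkapk2 (MK2) is the kinase through which p38 stabilizes cytokine mRNAs, and it stood at 19.9, 20.9 and 22.1 FPKM in the NC libraries, 51.9, 81.0 and 68.5 FPKM in the APAP libraries and 52.1, 43.5 and 60.1 FPKM in the AMSC libraries. Every treated library was above every NC library. It rose by 1.61 ± 0.17, adjusted p = 8.61e-04 in APAP and 1.26 ± 0.13, adjusted p = 4.85e-04 in AMSC livers, and AMSC against APAP gave -0.35 ± 0.20, adjusted p = 0.356 with a 95% interval of -0.81 to 0.10. The ratio of Mapkapk2 to Mapk14 was 0.873 ± 0.123 (SD, n = 3) in NC, 4.90 ± 1.93 in APAP and 3.09 ± 0.739 in AMSC livers. In each NC library the ratio was at most 1.01, and in each treated library at least 2.24. Mapkapk3 (MK3) was at 0.195 to 0.859 FPKM with all APAP libraries above all NC libraries, and in a fit over all genes above 0 its difference was 0.38 ± 0.11, adjusted p = 0.114. Mapkapk5 was at 0.560 to 1.21 FPKM, with overlapping groups.

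In the ERK branch, Mapk3 (ERK1) stood at 11.8, 13.5 and 16.3 FPKM in the NC libraries, 12.8, 12.3 and 15.0 FPKM in the APAP libraries and 13.8, 11.6 and 12.4 FPKM in the AMSC libraries. Its groups overlapped, and APAP against NC gave -0.05 ± 0.15, adjusted p = 0.840 with a 95% interval of -0.39 to 0.30. The other comparisons gave -0.12 ± 0.14, adjusted p = 0.537 for AMSC against NC and -0.08 ± 0.13, adjusted p = 0.790 for AMSC against APAP.

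Of the atypical MAPKs, Mapk6 (ERK3), which signals through Mapkapk5, stood at 5.58, 5.37 and 4.27 FPKM in the NC libraries, 11, 13.2 and 8.37 FPKM in the APAP libraries and 9.0, 8.93 and 10.8 FPKM in the AMSC libraries, with treated libraries all above NC. It rose by 0.95 ± 0.18, adjusted p = 0.00781 in APAP and 0.80 ± 0.13, adjusted p = 0.00331 in AMSC livers. Mapk15 (ERK8), a kinase linked to autophagy and cilia, stood at 1.17, 2.08 and 1.68 FPKM in the NC libraries, 2.09, 4.06 and 5.31 FPKM in the APAP libraries and 3.71, 2.91 and 4.57 FPKM in the AMSC libraries. Treated libraries were above NC, and it rose by 0.84 ± 0.17, adjusted p = 0.0102 in AMSC livers. APAP livers gave 0.82 ± 0.26, adjusted p = 0.0555, and passed in 5 of 16 alternatives. With the replicate number as a block the adjusted p was 0.020 for APAP and 0.170 for AMSC against NC. Mapk4 (ERK4) was too low to be tested, at 0.0857 to 0.155 FPKM in NC, 0.0552 to 0.152 in APAP and 0.313 to 0.394 in AMSC libraries, or 4 to 32 reads. Its AMSC libraries were above all others, and in a fit over all genes above 0 the difference was 0.29 ± 0.04, adjusted p = 0.0220 against NC and 0.30 ± 0.05, adjusted p = 0.109 against APAP.

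Scaffold transcripts were scarce. Mapk8ip3 (JIP3), which ties JNK to kinesin transport, stood at 1.24, 1.28 and 0.746 FPKM in the NC libraries, 1.01, 1.84 and 1.17 FPKM in the APAP libraries and 1.33, 1.91 and 1.28 FPKM in the AMSC libraries. It did not pass in any comparison, with 0.16 ± 0.18, adjusted p = 0.554 in APAP against NC, and it overlaps Mrps34 on the opposite strand, which was at a mean of 19.6 FPKM. Mapk8ip1 (JIP1) was at 0.400, 0.511 and 0.288 FPKM in the NC libraries, 0.417, 0.643 and 0.513 FPKM in the APAP libraries and 0.597, 0.431 and 0.501 FPKM in the AMSC libraries, with overlapping groups. Mapk8ip2 (JIP2) was listed at 0 in 6 of 9 libraries and at no more than 0.0283 FPKM in the others.

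Promoter sequence is shown for the pair with the largest log2 fold changes in APAP against NC on the log2(FPKM + 1) scale and for the pair that fell. The ranking depends on that scale, since Map3k8 was at 2.98 with a pseudocount of 0.1. Each window is the 250 bases before a RefSeq start (GRCm38.p6), written along the gene's strand, and capitals mark matches to the motifs searched.
Mapkapk2 at chr1:131097844-131098093 (-): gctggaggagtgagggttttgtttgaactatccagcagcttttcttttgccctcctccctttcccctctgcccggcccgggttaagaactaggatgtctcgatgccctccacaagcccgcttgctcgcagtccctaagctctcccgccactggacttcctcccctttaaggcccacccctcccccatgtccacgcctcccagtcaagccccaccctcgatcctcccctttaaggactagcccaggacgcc
Map3k6 at chr4:133240568-133240817 (+): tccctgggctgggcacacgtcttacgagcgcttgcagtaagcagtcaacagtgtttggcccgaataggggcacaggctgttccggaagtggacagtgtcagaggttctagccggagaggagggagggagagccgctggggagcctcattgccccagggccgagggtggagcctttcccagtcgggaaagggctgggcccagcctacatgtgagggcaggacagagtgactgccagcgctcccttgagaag
Map2k6 at chr11:110398852-110399101 (+): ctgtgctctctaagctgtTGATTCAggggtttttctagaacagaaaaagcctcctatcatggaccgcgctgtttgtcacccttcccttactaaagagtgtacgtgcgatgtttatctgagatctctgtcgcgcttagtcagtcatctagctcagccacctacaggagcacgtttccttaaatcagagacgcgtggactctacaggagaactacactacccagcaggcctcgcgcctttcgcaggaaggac
Mapk14 at chr17:28691092-28691341 (+): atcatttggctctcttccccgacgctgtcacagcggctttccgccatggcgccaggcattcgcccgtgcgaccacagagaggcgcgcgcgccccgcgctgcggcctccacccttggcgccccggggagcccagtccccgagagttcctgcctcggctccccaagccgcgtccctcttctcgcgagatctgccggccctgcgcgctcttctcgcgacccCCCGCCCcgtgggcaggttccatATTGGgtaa
The motifs, searched on both strands, were the AP-1-like pattern TGANTCA, the CRE TGACGTCA, the GC box GGGCGGG, the CCAAT box and TATAAA. N stands for any base, so the first pattern is looser than an AP-1 site. In the windows shown, Map2k6 held 1 match to the AP-1-like pattern, with T as its middle base. Mapk14 held a GC box and a CCAAT box that did not overlap, and the other 2 held none of the 5. Map2k6 has 3 windows and Mapk14 has 2, and the windows of Map2k6 not shown include a GC box and TATAAA. Promoters were matched for 39 of the 49 members, in 52 windows. The AP-1-like pattern was in 3 of these windows (5.77%) against 6.75% of 32851 promoters, a GC box in 23 (44.2%) against 23.4%, a CCAAT box in 13 (25.0%) against 33.8%, TATAAA in 3 (5.77%) against 12.4% and a CRE in 1 (1.92%) against 1.55%. A match is a run of letters and not evidence that a factor was bound.

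Around the kinases, 100 other genes of the pathway were listed by role, and 79 reached the level for testing. In APAP against NC 36 were higher and 1 lower, in AMSC against NC 33 were higher and 2 lower, and in AMSC against APAP 1 was higher and 7 were lower. Over all genes the shares were 12.8% higher and 13.1% lower, 14.1% and 11.9%, and 1.64% and 2.14% in these comparisons. Transcription factors and their kin gave 13 higher and 1 lower of 21 in APAP against NC, led by Atf3, Fos and Jun with log2 fold changes of 7.45, 6.46 and 5.49, and Trp53 was the fall at -0.43. These 3 did not pass between AMSC and APAP livers, with -0.13, -0.26 and 0.15. Fosl1 and Fosl2, AP-1 subunits induced through ERK, were lower in AMSC than in APAP livers by log2 fold changes of -2.67 and -0.96. Leaving out 1 library lost the call of Fosl1 in 5 of 6 fits, all but the one without APAP replicate 1 (adjusted p 0.0670 to 0.130), that of Fosl2 without APAP replicate 3 or AMSC replicate 2 or 4 (0.0645 to 0.0997), and that of Trp53 in 5 of 6 fits, all but the one without APAP replicate 3 (0.0546 to 0.0967). The 8 calls between AMSC and APAP livers became 4 without APAP replicate 3 or AMSC replicate 2 or 4, and 5 without AMSC replicate 3. Over all genes, 367 calls became 120 without APAP replicate 3 and 105, 100 and 101 without AMSC replicate 2, 3 and 4.

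Of 15 phosphatases that switch MAPKs off, 9 rose in APAP and 10 in AMSC against NC, and 5 were lower in AMSC than in APAP livers. Dusp6, a cytoplasmic phosphatase of ERK, was at 7.13 ± 2.31 FPKM (SD, n = 3) in NC, 79.3 ± 13.6 in APAP and 22.2 ± 1.34 in AMSC livers, and AMSC against APAP gave -1.78 ± 0.15, adjusted p = 0.00213. Dusp5, a nuclear phosphatase of ERK, was at 0.356 ± 0.0297, 52.5 ± 31.4 and 2.69 ± 0.519 FPKM, and AMSC against APAP gave -3.64 ± 0.47, adjusted p = 0.00966. Dusp14 gave -2.36 ± 0.26, adjusted p = 0.00643, and Dusp4 and Dusp10 were the other 2 that were lower. The call of Dusp10 was lost without any 1 library (adjusted p 0.0558 to 0.134), and the calls of Dusp4, Dusp5, Dusp6 and Dusp14 held in all 6 such fits. Dusp8, a phosphatase of JNK and p38, rose by 2.99 in APAP and 2.72 in AMSC livers, and Dusp1 by 3.11 and 2.66.

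Among upstream adaptors and activators, 7 of 16 rose in APAP and 7 of 16 in AMSC livers against NC. The Gadd45 proteins bind Map3k4 or Map2k7 in the stress branches. Gadd45a rose by 4.68 and 3.30, Gadd45b by 4.62 and 4.33, and Gadd45g by 2.50 and 4.12 in APAP and AMSC livers, on the log2 scale. Gadd45g, at 99.5 ± 36.8 FPKM in APAP and 295 ± 50.3 in AMSC livers (SD, n = 3), was the only listed gene higher in AMSC than in APAP livers (1.62 ± 0.29, adjusted p = 0.0320), a call lost without APAP replicate 3 or any 1 AMSC library (0.0540 to 0.116). GTPases, adaptors and Raf kinases gave 2 higher of 15 in APAP, Rap1b at 0.98 and Sos2 at 0.51, and 1 of 15, Rap1b at 0.57, in AMSC livers. Of 5 downstream kinases, Mknk2, which phosphorylates eIF4E, rose by 1.85 and 2.11, Rps6ka3 rose by 0.51 in APAP livers and Rps6ka1 fell by 0.66 in AMSC livers. Of 7 other scaffolds, Mapk1ip1, Flna and Spag9 rose in APAP livers and Mapk1ip1 and Spag9 in AMSC livers, where Mapk1ip1l fell by 0.36. The calls of Sos2, Rps6ka3 and Spag9 in APAP and of Rap1b, Spag9 and Mapk1ip1l in AMSC livers were each lost in 4 or 5 of 6 leave-one-out fits, with an NC library among those left out in each case. None of the 15 GTPases, adaptors and Raf kinases, 5 downstream kinases or 7 other scaffolds passed in AMSC against APAP in limma.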

How the data were processed

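The authors sequenced 9 liver RNA libraries. The deposited FPKM table covers 54532 genes, and 29683 of them held no value above 0. The authors used DESeq2 for their own comparisons. The aligner and counter are not given in the sources used here, and the submitters' processing notes name GRCm38 (mm10). FPKM times gene length gave whole reads, to within 0.1, for 100% of values, so 1 read on 1 kilobase was worth 0.0578 to 0.0807 FPKM. In each library the FPKM denominator scaled with a size factor from median ratios.

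Groups were taken from the sample labels. The methods call the 3 libraries of a group biological replicates, but no label ties a library to an animal, so p-values measure the spread between these libraries, which may be technical. Log2(FPKM + 1) was fitted with limma 3.58.1 (trend) in R 4.3.3, with 2 groups per fit, for 9699 genes averaging 1 FPKM or more, and p-values were adjusted by Benjamini-Hochberg. The threshold for passing was an adjusted p of 0.05, and a DEG also needed an absolute log2 fold change of 1 or more. Errors of log2 fold changes are standard errors. The fit was tested on simulated data. The members and lists were chosen with earlier results of these data known. By the rule for named genes, values in every library were given for members that passed in any comparison and for Mapk8, Mapk9, Mapk10, Map2k4, Map2k7, Map3k5, Map3k7, Map3k11, Mapk8ip1, Mapk8ip2, Mapk8ip3, Mapk3 and Mapk14, and of other pathway genes at most 3 per role and comparison were named, those with the largest change among those passing. A member is not reported here by name, though it is in the counts and sums. The other genes named lie outside this rule and were chosen after their values were seen. Deviations of same-numbered libraries correlated at 0.213, 0.160 and 0.378 in APAP against NC. No label pairs these libraries, so the main fits used no pairing and the replicate number was a block in an alternative fit only. The third NC library has the number 3 in its description and 1 in its title. Figures were drawn with matplotlib 3.10.9 under Python 3.11.15, using numpy 2.4.6 and pandas 2.3.3.

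Other settings tried were a pseudocount of 0.1, no filter on low values, a filter at 5 FPKM, quantile normalization, 1 fit over all libraries, protein-coding genes only, no trend, voom on recovered reads, the replicate number as a block and leaving out each library. Scaling to total reads and leaving out APAP replicates 1 and 3 were added after seeing the data.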

Additional observations from a re-analysis of the deposited data

How the results depend on the processing

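Every call of a member against NC kept its direction in all alternatives in which the member was tested. Of 230 values recomputed for APAP against NC, 197 stayed past the threshold and 33 did not, and of 201 for AMSC against NC, 150 did and 51 did not. Map2k6, Map3k14, Map3k6, Map3k8, Map4k4, Mapk6 and Mapkapk2 passed in every alternative that tested them in APAP against NC, and Map3k5, Map3k6 and Mapkapk2 in AMSC against NC. Scaling to total reads lost Map2k4, Map3k3 and Mapk8 in APAP against NC. In AMSC against NC it lost Map2k4, Map2k5, Map3k1, Map4k4 and Mapk8. In APAP against NC, the 14 members passing became 9 over all genes above 0 and 6 of 15 with a mean of at least 5 FPKM, the 5 DEGs became 9 with a pseudocount of 0.1 or voom, 3 over all genes above 0 and 2 with a mean of at least 5 FPKM, and the 37 pathway genes became 21 with that mean. In AMSC against NC, the 13 members became 6 with a mean of at least 5 FPKM and the 3 DEGs 7 with a pseudocount of 0.1 or voom. In AMSC against APAP, 1 member passed with a pseudocount of 0.1, quantile normalization, protein-coding genes, no trend, voom or scaling to total reads, which was Map2k6 in each, and 2 with all 9 libraries in 1 fit. Without APAP replicates 1 and 3, which leaves 1 APAP library that is assumed to vary like the other group, 1 member passed, Map3k2. With a pseudocount of 0.1 or voom, 1 was a DEG. The 8 pathway genes became 1 over all genes above 0 and 4 with a mean of at least 5 FPKM. The mean of at least 5 FPKM leaves fewer members to test. With it, 1318 of 4935 genes passed in APAP against NC, 1509 in AMSC against NC and 178 in AMSC against APAP. Over all genes above 0, 1924 of 24849 passed in APAP against NC, 1776 in AMSC against NC and 53 in AMSC against APAP. In AMSC against NC that fit called 9 of the 49 members, all higher, among them Map2k7 and Mapk4. The cause of the other changes was not tested.

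Leaving out 1 library gave 9 to 15 members, 3 to 7 DEGs and 27 to 35 pathway genes in APAP against NC, 7 to 12 members, 3 DEGs and 26 to 33 pathway genes in AMSC against NC, and 0 to 1 members, 0 DEGs and 4 to 9 pathway genes in AMSC against APAP. Over all 9699 genes these fits called 1353 to 2749, 1678 to 2356 and 100 to 366 genes in the same order. With the replicate number as a block, 15 members passed in APAP against NC (Mapk15 beside the 14), 3 in AMSC against NC, where the 35 pathway genes became 22, and 2 in AMSC against APAP. Over all genes the block called 3106, 846 and 389 in the same order. Same-numbered libraries correlated at -0.104 and -0.293 in AMSC against APAP and at -0.199 and -0.309 in AMSC against NC. Both comparisons share 2 numbers, and no label pairs the libraries of any comparison. The block changed no other call in APAP against NC. The members not tested held 0 to 222 reads in a library, and Mapk10, Map3k19 and Mapk8ip2 at most 2.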
